A study of Mus musculus with 12 samples.

Results

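Total colons labelled S1PR4 KO were compared with total colons labelled wild type (WT), 3 libraries against 3, chosen from the 12 samples of the series by their colon tissue label. All 6 came from C57BL/6 mice that had received azoxymethane (AOM, 10 mg/kg), a carcinogen, and courses of dextran sulfate sodium (DSS, 0.5%) in the drinking water, which strips the colon lining, and all were taken at day 84. Treatment with AOM and DSS is therefore common to both groups, and no untreated colon was analysed here. The allele behind the KO label, and the age and sex of the mice, are not given in the sources used here. Nor do they say that replicates were separate mice. P-values then measure the spread between these samples, an unknown part of which may be technical. Values are read counts per Ensembl gene, and 17195 of the 30263 genes in the tables had enough counts to be tested.

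S1PR4 is a G protein-coupled receptor for sphingosine 1-phosphate, a lipid that guides lymphocytes out of tissues and shapes vessel and immune cell behaviour. It is found mainly on blood and immune cells, so in whole colon its transcript competes with the RNA of epithelium, muscle, nerves and stroma. The colonic epithelium renews itself from WNT-dependent stem cells at the crypt base, divides in the lower crypt and takes up salt and water at the surface, and many of its genes follow the circadian clock.

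S1pr4 itself was not lower in the libraries labelled KO. Its level in CPM (counts scaled to library size with TMM factors) was 7.22, 6.29 and 3.13 for the WT label and 19.7, 21.4 and 16.1 for the KO label. All 3 values labelled KO lay above all 3 labelled WT. Counts per gene do not show which part of a transcript was read, and which mice were without a working receptor cannot be read from them. From here on WT and KO stand for the labels only, and a library called KO is the library labelled KO.

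The 6 libraries did not fall into their 2 labelled groups. Total counts ran from 7304082 to 8652561. The first principal component held 53.6% of the variance and set KO replicates 2 and 3 (40.9 and 69.6) apart from KO replicate 1 (-41.9) and the WT libraries (-36.9 to -10.4), while the second (21.2%) set WT replicate 1 apart (50.8). KO replicate 1 was nearer to WT replicate 3, with a root mean square log2 distance of 0.263 over 10471 genes, than to either other KO library (0.528 and 0.618). Xist, the RNA that coats the inactive X, was high in WT replicate 1 and KO replicates 2 and 3 (515 to 591 CPM) and at most 6.75 CPM in the others, which alone held appreciable Y-linked reads. Each label thus held libraries of both kinds, so its 3 libraries were not all from 1 mouse. The kinds were not balanced between the labels. Differences within those sets of libraries, KO replicate 1 against WT replicates 2 and 3 (within the Y-read set) and KO replicates 2 and 3 against WT replicate 1 (within the Xist set), are given below beside the gene groups they touch.

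Some libraries also held RNA of neighbouring tissue. Raw counts of Krt5, a keratin of stratified squamous epithelium, were 1054 in WT replicate 1 and at most 3 elsewhere, and those of Pnlip, a pancreatic lipase, were 517 in WT replicate 2 and at most 15 elsewhere. The fat cell hormone Adipoq was highest in KO replicate 1 and lowest in WT replicate 2 (2.01 CPM). In contrast, the labelled tissue was evident in every library: Vil1, the villin of the brush border, ranged from 282 to 315 CPM and Krt20, a keratin of surface colonocytes, from 167 to 203 CPM.

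In edgeR's quasi-likelihood fit 0 of the 17195 genes (0%) had an adjusted p under 0.05 (Benjamini-Hochberg; the smallest was 0.641). At an unadjusted p under 0.05 there were 870 genes (5.06%), of which 451 (2.62%) were higher and 419 (2.44%) lower in KO. The 3 KO values lay entirely above the 3 WT values for 782 genes (4.55%) and entirely below them for 866 (5.04%), together 9.58%. Limma-voom also called 0 genes, with 4552 at an unadjusted p under 0.05. DESeq2 called 18 genes (0.105%), 7 higher and 11 lower, and its count was 14 when genes of low count were kept in its fit; Adar, Lta4h, Sfi1 and Themis3 were the 4 not called then. All 18 had groups that did not overlap. Since edgeR called none of them, the words rose and fell below apply to the DESeq2 calls alone. Log2 differences and SE below are those of the edgeR fit unless another setting is named. A DESeq2 adjusted p printed beside them comes from DESeq2's own estimate and SE.

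**Figure D1:**
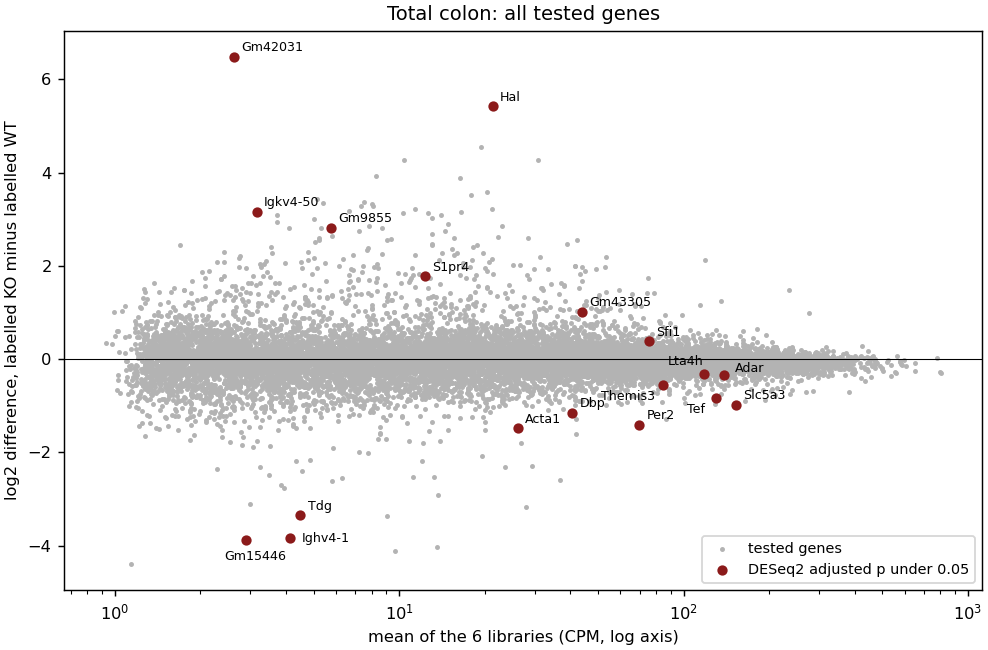
Each point is a gene, with its mean over the 6 libraries (CPM, log axis) against its fitted log2 difference, labelled KO minus labelled WT. The 18 genes with a DESeq2 adjusted p under 0.05 are named, from Gm42031 and Hal at the top to Gm15446 and Ighv4-1 at the bottom, and none of the points passed edgeR's test.

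The data bound most differences. The 95% confidence interval of the log2 difference lay within 1 in either direction for 12221 genes (71.1%), and for 3296 of 3417 genes (96.5%) with a mean of 100 CPM or more. It did so for only 964 of 3141 genes (30.7%) with a mean under 5 CPM, a range that holds many lymphocyte genes. Counts per annotated exon base reached no more than 0.919 to 0.973 in any library, so for the 1176 genes above 0.3 a fold may be compressed.

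Chromosome 10, which carries S1pr4, held several of the largest differences. It carried 5 of the 18 DESeq2 calls (27.8%) and 4.80% of the tested genes. The 5 were S1pr4, Hal, Lta4h, Tdg and the Tdg pseudogene Gm9855, and reads of the last 2 can be assigned to either. From the start of S1pr4, those of Hal and Lta4h lie at 12.0 Mb and that of Gm9855 at -39.4 Mb. S1pr4 (ENSMUSG00000044199, GRCm38 chromosome 10, 81497747 to 81500132, minus strand) rose by 1.78 ± 0.34 on the log2 scale (SE; DESeq2 adjusted p = 0.00578). Of the other receptors for the same lipid, S1pr1, which lymphocytes need to leave lymph nodes, differed by -0.07 ± 0.30 and S1pr2 by 0.16 ± 0.22 (SE, log2). S1pr3 differed by -0.52 ± 0.63 (SE, log2), and S1pr5 was too rare to test, with 16 counts in WT replicate 1 and at most 2 elsewhere. The genes that make, break down and carry the lipid were evenly split, 10 of 20 higher, with a median of 0.01 and 0 of 20 at an unadjusted p under 0.05.

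Hal, histidine ammonia-lyase, which starts histidine breakdown (ENSMUSG00000020017, chromosome 10, 93488768 to 93519304, plus strand), was nearly silent in WT. It stood at 0.946, 0.669 and 1.25 CPM in WT and at 84.5, 20.6 and 20.2 CPM in KO. The lowest KO value was far above the highest WT value, and KO replicate 1 held most of the signal. Hal rose by 5.42 ± 0.78 (SE, log2; DESeq2 adjusted p = 3.93e-11), and by 4.39 without KO replicate 1. Of the 13 tested genes of histidine and one-carbon metabolism 12 had a higher mean in KO (median 0.20, but 0.12 without WT replicate 2), and Hal was the 1 whose groups did not overlap.

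Lta4h, the hydrolase that makes leukotriene B4 (chromosome 10, 93453411 to 93484875), is the neighbour of Hal and showed the opposite and much smaller difference. Its values were tight, at 130, 133 and 130 CPM in WT and 103, 103 and 108 CPM in KO. Lta4h fell by 0.32 on the log2 scale (SE 0.05; DESeq2 adjusted p = 0.0450), and leaving out any 1 library kept the difference between -0.34 and -0.31. It differed by -0.35 within the Y-read set and by -0.30 within the Xist set.

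Tdg, a thymine DNA glycosylase (chromosome 10, 82629828 to 82650799, plus strand), starts 1.13 Mb from S1pr4. It stood at 8.28, 8.69 and 7.63 CPM in WT and at 0.766, 1.19 and 0.408 CPM in KO. Gm9855, a transcribed pseudogene of Tdg on the same chromosome (42054113 to 42055306), showed the reverse, with 1.54, 1.20 and 1.50 CPM in WT and 7.66, 11.1 and 11.6 CPM in KO. The sum of both was 9.82, 9.90 and 9.13 CPM in WT and 8.43, 12.3 and 12.0 CPM in KO, groups that overlapped. Reads of such near copies can be assigned to either gene, so the single values of Tdg and Gm9855 are uncertain. The other 15 base excision repair genes included 12 with a higher mean in KO; the glycosylase partner Mbd4, the glycosylase Neil3 and Parp1, which senses strand breaks, each had KO values entirely above WT, as did 4.55% of all genes (0.30 ± 0.18, 0.33 ± 0.16 and 0.24 ± 0.12, SE, log2).

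Creb3l3, a membrane-bound transcription factor of lipid metabolism whose start coordinate lies at -0.41 Mb from that of S1pr4, was not called by DESeq2. It stood at 22.6, 11.6 and 15.6 CPM in WT and at 5.49, 8.99 and 6.81 CPM in KO, without overlap. Its log2 difference was -1.23 ± 0.32 (SE).

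Away from chromosome 10, several calls had very little spread between libraries. Acta1, skeletal muscle actin, stood at 38.9, 33.8 and 42.4 CPM in WT and at 12.3, 17.9 and 11.2 CPM in KO and fell by 1.48 on the log2 scale (SE 0.21; DESeq2 adjusted p = 1.71e-05). All 11 striated muscle genes tested, Acta1 among them, had a lower mean in KO (median -0.47). The median was -0.35 without WT replicate 1, -0.78 without WT replicate 2 and -0.80 without WT replicate 3. Actn2 (-0.94 ± 0.30, SE, log2) and Myh2 also had groups that did not overlap. The list's mean level was highest in WT replicate 1 (0.92, beside -0.066 and 0.033 in WT replicates 2 and 3) and lowest in KO replicate 3. Its part in the Acta1 value was not tested. Acta1 differed by -1.46 without WT replicate 1 and by -1.34 without KO replicate 3. Actin genes share long stretches of sequence, so reads of Acta1 may be split with its relatives.

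Adar, which edits adenosine in double-stranded RNA, stood at 154, 155 and 159 CPM in WT and at 127, 117 and 124 CPM in KO and fell by 0.35 on the log2 scale (SE 0.06; DESeq2 adjusted p = 0.0235). Adar is itself interferon-stimulated, but that list as a whole did not follow it. With Adar counted, 16 of 30 members were higher and the median was 0.00. Adar was the 1 member whose groups did not overlap. Themis3, of a family of T cell signalling adaptors but transcribed in intestine, fell by 0.56 on the log2 scale (SE 0.11; 96.9 to 103 CPM in WT, 61.4 to 78.6 CPM in KO), although near copies within the family make its counts uncertain. Slc5a3, the sodium-coupled myo-inositol transporter that answers to osmotic load, fell by 0.98 on the log2 scale (SE 0.23), from 175, 177 and 255 CPM in WT to 133, 95.6 and 79.8 CPM in KO.

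Sfi1, a centrin-binding protein of the centrosome, rose by 0.39 ± 0.07 (SE, log2), with 64.3, 63.1 and 68.3 CPM in WT and 83.6, 87.2 and 85.8 CPM in KO. Beside the clock genes described below, the remaining DESeq2 calls were 3 unnamed gene models and 2 immunoglobulin variable segments. Gm42031, a lincRNA, had 0, 0.134 and 0 CPM in WT and 8.04, 2.51 and 5.04 CPM in KO, Gm15446 had 4.55 to 6.15 CPM in WT and at most 0.661 CPM in KO, and Gm43305 rose by 1.02 ± 0.21 (SE, log2). Ighv4-1 fell and Igkv4-50 rose. In the families around them, 26 of 57 heavy chain and 27 of 61 kappa variable segments had a higher mean in KO. The mean level of both families lay above the WT range in KO replicate 1 (0.60 and 0.48). It lay below that range in KO replicate 3 (-0.99 and -0.98). Of the 61 kappa segments, 6 lay entirely below WT and 1 entirely above, beside 5.04% and 4.55% of all genes. Reads of near-identical segments can be split between them, so single segments are uncertain.

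**Figure D2:**
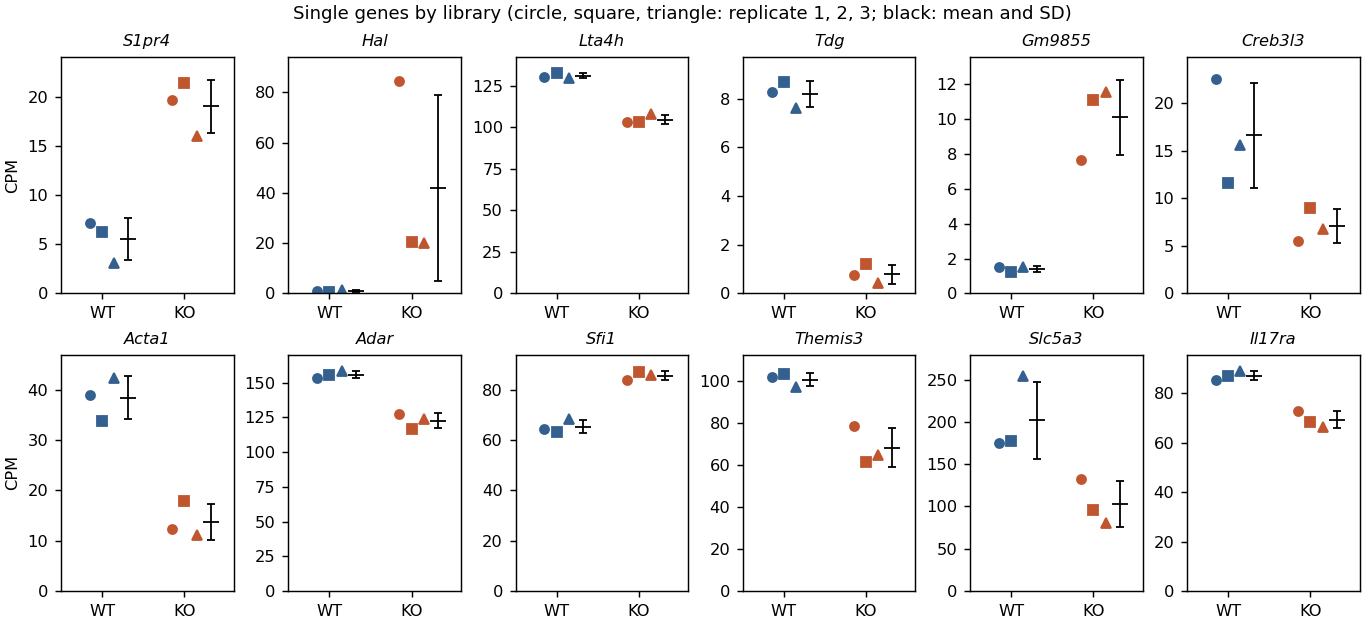
CPM of 12 genes in each library (circle, square and triangle for replicates 1, 2 and 3, with the mean and SD in black) for the labelled WT and KO groups. The groups do not overlap in any of the 12 panels; Hal in KO replicate 1 (84.5 CPM) stands above the other KO libraries (20.6 and 20.2 CPM).

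Genes of the circadian clock mostly had lower means in KO. The clock is a loop in which ARNTL and CLOCK bind E-boxes and drive the Per, Cry and Nr1d genes, whose products then repress them, and in which the PAR bZIP factors DBP, TEF and HLF pass the rhythm on through D-boxes. Of 21 clock genes tested, 19 had a lower mean in KO (median log2 difference -0.45, where the median of all tested genes was -0.0045), and 7 of 21 were lower at an unadjusted p under 0.05 beside 2.44% of all genes. Also 7 of 21 had KO values entirely below WT, beside 5.04% of all genes. Leaving out WT replicate 1 brought the median to -0.25, leaving out KO replicate 3 to -0.30 and leaving out KO replicate 1 to -0.83. It was 1 of 3 lists, with centriole genes and histidine metabolism, in which the mean level of each KO library lay outside the WT range on the same side. In the histidine list Hal differed most, by 5.42 on the log2 scale. Time of day of sampling is not given in the sources used here and cannot be told apart from the groups.

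Promoter sequences of 4 clock genes are shown because they hold words that the loop is known to use. RefSeq promoters on GRCm38.p6 (250 bases before to 50 after a start) were found for 17 of the 21 clock genes and for 11912 tested genes; Per2 was not among them. The E-box word CACGTG, searched on both strands, was present in 5 of 17 (29.4%), namely Ciart, Per1, Tef, Cry1 and Bhlhe41, and in 11.2% of the tested genes. Dbp, which DESeq2 called, held 0 such words in the 250 bases before its start, as did the second listed start of Per1. The D-box word TTATGTAA was present in Per3 only (5.88% of 17, beside 0.739%). A match is a word in a window, not a shown binding site. The 250 bases before the start follow in lower case with these words in capitals, for Ciart (chr3:95882229-95882478, minus strand, 3 E-boxes), Per1 (its first listed start, chr11:69098699-69098948, plus strand), Tef (chr15:81802423-81802672, plus strand) and Per3 (chr4:151044666-151044915, minus strand, 2 D-boxes).
Ciart: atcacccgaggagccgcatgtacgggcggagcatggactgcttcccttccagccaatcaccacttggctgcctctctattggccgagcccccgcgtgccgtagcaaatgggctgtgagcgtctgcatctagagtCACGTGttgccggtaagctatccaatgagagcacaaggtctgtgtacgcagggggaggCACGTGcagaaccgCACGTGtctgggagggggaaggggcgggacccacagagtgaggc
Per1: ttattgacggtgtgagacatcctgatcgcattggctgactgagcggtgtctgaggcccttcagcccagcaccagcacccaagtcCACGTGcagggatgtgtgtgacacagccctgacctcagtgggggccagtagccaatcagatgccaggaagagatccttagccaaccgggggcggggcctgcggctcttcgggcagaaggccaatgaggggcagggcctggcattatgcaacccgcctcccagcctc
Tef: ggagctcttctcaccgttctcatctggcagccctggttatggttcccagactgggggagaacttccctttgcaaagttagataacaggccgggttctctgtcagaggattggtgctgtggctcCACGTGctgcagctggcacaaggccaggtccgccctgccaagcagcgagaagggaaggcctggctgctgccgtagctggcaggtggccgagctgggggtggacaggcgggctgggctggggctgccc
Per3: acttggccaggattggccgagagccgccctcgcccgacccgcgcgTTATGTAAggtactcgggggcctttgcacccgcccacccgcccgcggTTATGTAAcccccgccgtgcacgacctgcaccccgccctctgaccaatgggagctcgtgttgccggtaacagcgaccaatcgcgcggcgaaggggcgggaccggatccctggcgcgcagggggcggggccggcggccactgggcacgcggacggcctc

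Per2, Per1 and Ciart encode repressors of the loop. Per2 stood at 137, 64.5 and 102 CPM in WT and at 45.4, 37.6 and 31.9 CPM in KO and fell by 1.40 on the log2 scale (SE 0.29; DESeq2 adjusted p = 0.00578). Per1 stood at 116, 65.1 and 91.4 CPM in WT and at 46.2, 54.2 and 47.9 CPM in KO, a log2 difference of -0.88 ± 0.21 (SE). Ciart, a repressor of the ARNTL and CLOCK pair with the 3 E-boxes shown above, had the largest difference of the list, -1.90 ± 0.49 (SE, log2), on low counts (5.08 to 14.2 CPM in WT, 1.79 to 3.70 CPM in KO). In all 3 genes no KO library reached the lowest WT library. Per3 (-0.70 ± 0.34) and Cry2 (-0.45 ± 0.20) were lower on average with overlapping groups, and Cry1 differed by -0.18 ± 0.16 (SE, log2).

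Of the PAR bZIP outputs, DESeq2 called Tef and Dbp. Tef stood at 201, 140 and 157 CPM in WT and at 105, 90.7 and 84.0 CPM in KO and fell by 0.83 on the log2 scale (SE 0.16; DESeq2 adjusted p = 0.00554). Dbp stood at 67.5, 42.5 and 57.6 CPM in WT and at 28.0, 29.8 and 18.1 CPM in KO and fell by 1.14 on the log2 scale (SE 0.25; DESeq2 adjusted p = 0.0450). Hlf, the third of them, differed by -1.53 ± 0.54 (SE, log2), with overlap between 13.9 CPM in WT replicate 2 and 15.1 CPM in KO replicate 1. Nfil3, which represses through the same D-boxes, was 1 of the 2 clock genes with a higher mean (0.76 ± 0.36, SE, log2), high in KO replicates 2 and 3 only (25.5 and 30.2 CPM, beside 11.4 to 13.9 CPM).

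The activators showed no such difference. Arntl differed by -0.02 ± 0.21, Clock by -0.07 ± 0.10 and Npas2 by -0.11 ± 0.20 (SE, log2). The REV-ERB gene Nr1d1 differed by -0.55 ± 0.26 (SE, log2), with KO replicate 1 at 159 CPM inside the WT range of 141 to 182 CPM. Per2, Per1, Dbp, Tef, Ciart and Hlf were lower within both library sets, with Per2 at -0.83 within the Y-read set and -1.98 within the Xist set. With Xist status as a covariate the list's median was -0.40.

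**Figure D3:**
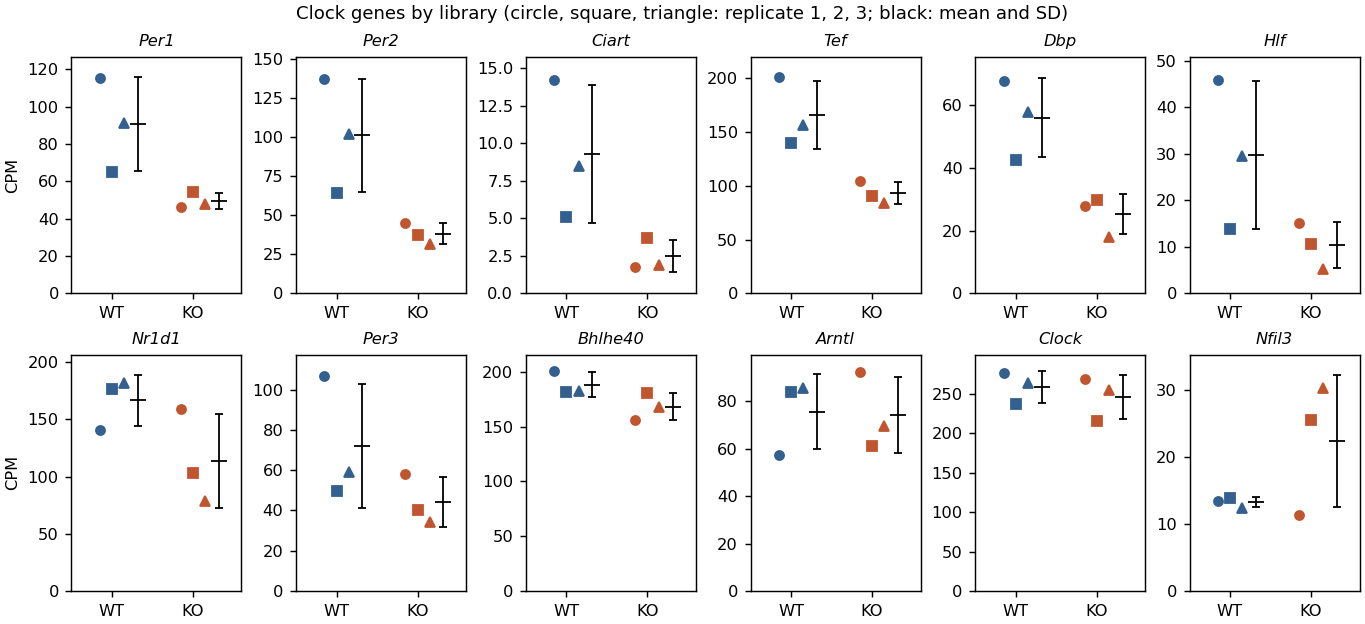
CPM of 12 clock genes in each library (circle, square and triangle for replicates 1, 2 and 3, with the mean and SD in black) by label. Per1, Per2, Ciart, Tef, Dbp and Bhlhe40 have all KO values below all WT values, whereas Arntl and Clock overlap.

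Genes of salt and water uptake by surface colonocytes mostly had lower means in KO. Of 24 genes, 19 were lower (median -0.21), with 4 lower at an unadjusted p under 0.05 and 3 whose KO values lay entirely below WT, beside 2.44% and 5.04% of all genes. The median was -0.066 without KO replicate 3 and -0.090 with Xist status as a covariate. Scnn1g, the gamma subunit of the epithelial sodium channel, stood at 38.4, 20.2 and 36.0 CPM in WT and at 13.3, 5.95 and 3.13 CPM in KO, with a log2 difference of -2.08 ± 0.55 (SE). Nr3c2, the mineralocorticoid receptor through which aldosterone acts, stood at 235, 235 and 240 CPM in WT and at 218, 150 and 153 CPM in KO (-0.45 ± 0.15, SE, log2). KO replicate 1 lay close to WT for the receptor and well below it for the channel subunit.

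Sgk1, the kinase that aldosterone induces to keep the channel at the surface, differed by -0.53 ± 0.18 (SE, log2), and Atp12a, the colonic proton-potassium pump, by -0.60 ± 0.21 (SE, log2). The channel's alpha subunit Scnn1a (-0.25 ± 0.12) and beta subunit Scnn1b (-0.63 ± 0.38, SE, log2) had overlapping groups, and Scnn1b differed by 0.17 within the Y-read set and -1.44 within the Xist set. Hsd11b2, which shields the receptor from glucocorticoids, differed by -0.11 ± 0.14 (SE, log2). Within the Y-read set the list's mean difference was -0.14 and within the Xist set -0.19. Other surface genes went the same way: Slco2a1, the prostaglandin transporter, stood at 223 to 246 CPM in WT and at 220, 127 and 94.1 CPM in KO, and Ptger4, the prostaglandin E2 receptor EP4, at 88.8 to 101 CPM and 66.9 to 84.4 CPM (-0.35 ± 0.11, SE, log2). Of 26 genes of drug and toxin metabolism 22 had a lower mean in KO (median -0.15); the bilirubin-conjugating Ugt1a1 (4.81 to 5.91 CPM in WT, 1.63 to 3.44 CPM in KO), Cyp2s1 (-0.53 ± 0.22) and the carboxylesterase Ces2a (-0.40 ± 0.17, SE, log2) had KO values entirely below WT, as did 5.04% of all genes. Without KO replicate 3 Cyp2s1 differed by -0.32 and Ces2a by -0.25, and the list's median was -0.047.

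Genes of dividing cells had higher means in KO. All 24 mitosis genes were higher (median 0.25; 49% of all tested genes were above 0), 7 of them at an unadjusted p under 0.05 and 6 with KO values entirely above WT, beside 2.62% and 4.55% of all genes. Cenpe, the kinesin that carries chromosomes to the spindle equator, stood at 61.9, 65.4 and 63.9 CPM in WT and at 79.0, 83.3 and 99.8 CPM in KO (0.46 ± 0.10, SE, log2). Top2a, which untangles chromosomes, stood at 171, 189 and 178 CPM in WT and at 196, 238 and 255 CPM in KO (0.36 ± 0.11, SE, log2). Kif11, the motor that pushes the spindle poles apart, Ccnb1, the mitotic cyclin, Bub1, a checkpoint kinase, and Kif20a also had groups that did not overlap (0.26 to 0.56 on the log2 scale). The general proliferation marker Mki67 overlapped between groups, at 277 to 305 CPM in WT and 293 to 361 CPM in KO.

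When genes were ranked by p, 3 of the first 15 higher in KO belonged to the mitosis, replication or centriole lists, and the separase Espl1, the condensin subunit Ncapg2, the spindle factor Haus6 and Atad5, which unloads the replication clamp, were also among those 15. These were picked for their role after the ranking was seen, with no test of a theme. Ncapg2 stood at 46.6 to 48.7 CPM in WT and at 61.3, 76.2 and 92.3 CPM in KO (0.68 ± 0.15, SE, log2). Stil, a member of the centriole list needed to start a new centriole, stood at 19.9 to 25.6 CPM in WT and at 33.4 to 40.2 CPM in KO (0.74 ± 0.15, SE, log2). In both genes the lowest KO library lay above the highest WT library.

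Replication genes were likewise all on 1 side, 23 of 23 higher with a median of 0.27 (0.16 without WT replicate 1), and 2 of 23 had KO values entirely above WT, beside 4.55% of all genes: Pola1, the catalytic subunit of the priming polymerase (0.41 ± 0.13), and Pcna, the sliding clamp (0.18 ± 0.13, SE, log2). The library sets split these lists. Within the Xist set 24 of 24 mitosis and 23 of 23 replication genes were higher, with mean differences of 0.48 and 0.67. Within the Y-read set 13 of 24 and 4 of 23 were higher. Among single genes Cenpe and Stil kept their direction within both sets (Cenpe 0.29 and 0.56, Stil 0.69 and 0.60, Y-read set first).

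Promoters of the mitosis genes carry a known pair of words, shown here for Top2a (chr11:99024190-99024439, minus strand) and Kif11 (chr19:37376132-37376381, plus strand). The CCAAT box, searched as CCAAT on both strands, was present in 16 of the 19 mitosis genes with a RefSeq promoter (84.2%) and in 42% of tested genes. The cell cycle homology region, searched as TTTGAA on both strands, was present in 13 of 19 (68.4%) beside 14.8%. The replication genes held the first word in 13 of 20 (65%) and the second word in 3 of 20 (15%). The CCAAT box was also present in 13 of 17 clock genes (76.5%) and 14 of 14 sterol synthesis genes (100%), so it was not particular to mitosis genes. Capitals mark both words in the 250 bases before the start.
Top2a: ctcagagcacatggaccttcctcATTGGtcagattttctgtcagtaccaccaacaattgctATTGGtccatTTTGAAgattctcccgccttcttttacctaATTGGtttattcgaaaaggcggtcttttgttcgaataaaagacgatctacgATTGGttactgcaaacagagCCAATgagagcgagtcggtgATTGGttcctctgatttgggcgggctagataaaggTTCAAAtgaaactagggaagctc
Kif11: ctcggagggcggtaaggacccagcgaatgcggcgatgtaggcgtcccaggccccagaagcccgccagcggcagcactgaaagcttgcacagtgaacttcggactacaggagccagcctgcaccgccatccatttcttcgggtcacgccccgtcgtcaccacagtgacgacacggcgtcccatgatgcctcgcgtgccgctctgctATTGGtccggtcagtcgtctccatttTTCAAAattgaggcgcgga

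Crypt stem cell and WNT target genes had high means in KO replicates 2 and 3 alone. Of 28 genes, 25 had a higher mean in KO (median 0.58, but 0.31 without KO replicate 3). At an unadjusted p under 0.05 there were 4, beside 2.62% of all genes, and 0 of 28 had KO values entirely above WT, beside 4.55%. Lgr5, the receptor that marks crypt base stem cells, stood at 34.9, 16.0 and 11.8 CPM in WT and at 26.7, 72.6 and 102 CPM in KO. Prox1, a transcription factor of WNT-driven colon tumors, stood at 71.1, 44.0 and 18.4 CPM in WT and at 36.9, 195 and 350 CPM in KO. Nkd1, a feedback inhibitor of WNT, stood at 112, 71.4 and 58.0 CPM in WT and at 70.2, 217 and 285 CPM in KO. In each of the 3, KO replicate 1 lay inside the WT range and the other KO libraries above it.

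The WNT-responsive transcription factors Lef1 (2.28 ± 0.83) and Tcf7 (1.05 ± 0.41, SE, log2) showed the same split. Ephb2 (-0.00 ± 0.09) and Lrig1 (-0.02 ± 0.07, SE, log2), both expressed along the lower crypt, did not differ between libraries by a comparable amount. The list's mean difference was 0.05 within the Y-read set and 0.76 within the Xist set, and its median was 0.32 with Xist status as a covariate. The WNT ligand gene Wnt6 stood at 6.38 to 16.1 CPM in WT and at 8.55, 43.6 and 102 CPM in KO. Whether a colon sample held more tumor tissue is not given in the sources used here and was not tested.

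**Figure D4:**
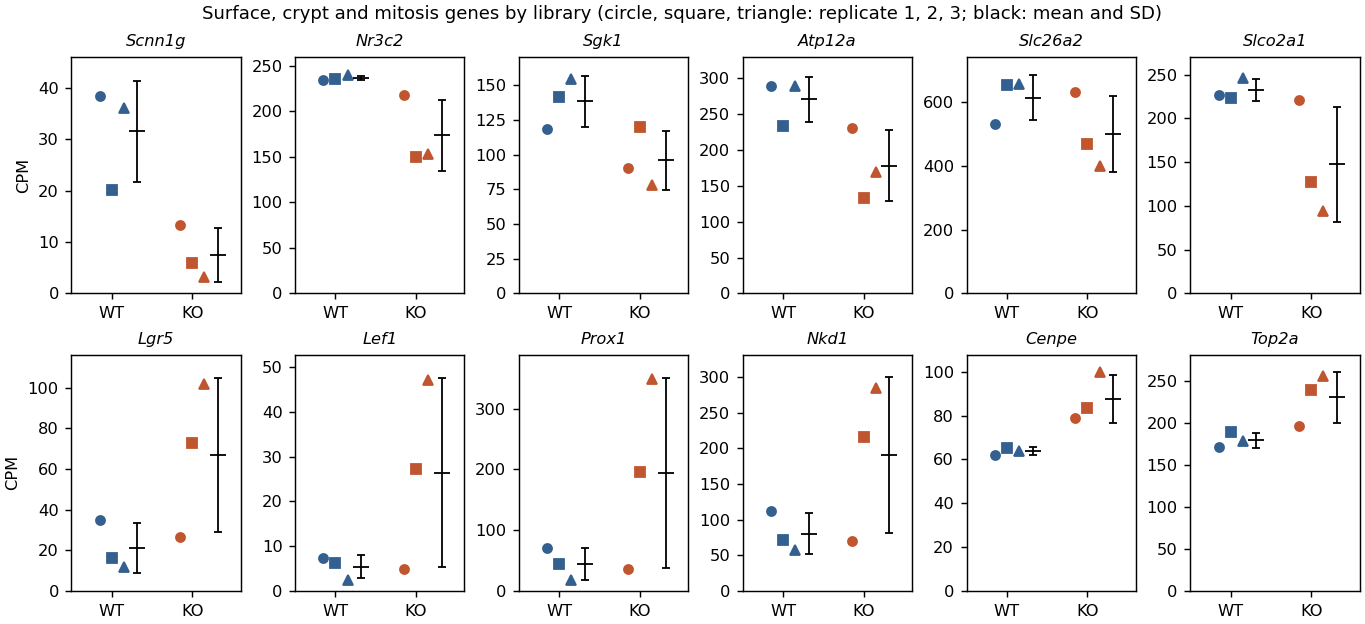
CPM of 12 epithelial genes in each library (circle, square and triangle for replicates 1, 2 and 3, with the mean and SD in black) by label. Scnn1g, Nr3c2, Atp12a, Slco2a1, Cenpe and Top2a separate the labels in all 3 KO libraries, whereas Lgr5, Lef1, Prox1 and Nkd1 are high only in KO replicates 2 and 3.

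Sterol synthesis genes had slightly higher means. Of 21 genes, 20 were higher in KO (median 0.26), 4 at an unadjusted p under 0.05 and 4 with KO values entirely above WT, beside 2.62% and 4.55% of all genes. The median was 0.16 with Xist status as a covariate. The list's mean level lay above the WT range in KO replicates 2 and 3 and inside it in KO replicate 1. Fdps, which makes farnesyl diphosphate, stood at 8.16, 6.69 and 5.75 CPM in WT and at 9.83, 14.7 and 12.7 CPM in KO (0.85 ± 0.24, SE, log2). Fdft1, which commits farnesyl diphosphate to sterols, stood at 58.4, 56.2 and 49.4 CPM in WT and at 60.3, 75.8 and 75.3 CPM in KO (0.37 ± 0.12, SE, log2). KO replicate 1 lay just above WT in both. Hmgcs1, the first enzyme of the branch, differed by 0.29 ± 0.10 (SE, log2), and its promoter (chr13:119690101-119690350, plus strand) was the 1 among 14 sterol genes in the table with the sterol response element TCACCCCAC (7.14%, beside 0.672% of tested genes, both strands searched), shown in capitals.
Hmgcs1: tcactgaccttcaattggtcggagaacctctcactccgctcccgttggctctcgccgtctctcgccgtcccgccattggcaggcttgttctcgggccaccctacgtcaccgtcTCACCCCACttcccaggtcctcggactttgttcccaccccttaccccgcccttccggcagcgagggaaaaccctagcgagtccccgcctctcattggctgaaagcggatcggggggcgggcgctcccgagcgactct

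The regulator of the pathway, Srebf2, differed by 0.06 ± 0.07 (SE, log2). Among 16 of the 21 genes the mean was higher within both library sets. Fatty acid synthase, Fasn, was also higher (0.28 ± 0.11), as was the desaturase Scd2 (0.18 ± 0.07), while Cpt1a, which admits fatty acids to mitochondria for oxidation, was lower (-0.25 ± 0.09, SE, log2). In all 3 the groups did not overlap. The fatty acid list as a whole was even, with 9 of 20 higher.

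Among immune genes, a few members had KO values entirely above WT, as did 4.55% of all genes, and those named here were picked for it. Alox5, 5-lipoxygenase, which tuft and myeloid cells use to make leukotrienes, stood at 6.03, 10.0 and 8.13 CPM in WT and at 12.9, 14.4 and 20.2 CPM in KO (0.97 ± 0.28, SE, log2). Its partner Alox5ap had groups that did not overlap (0.56 ± 0.25, SE, log2), in the direction opposite to Lta4h. Of the 12 tuft cell genes tested 10 had a higher mean (median 0.64), the lineage factor Pou2f3 among them (0.99 ± 0.41, SE, log2). The list's mean level lay above the WT range in KO replicates 2 and 3 and inside it in KO replicate 1. Within the Y-read set 4 of 12 were higher (Pou2f3 at -0.0094) and within the Xist set 10 of 12 (Pou2f3 at 1.79). Il5ra, the interleukin 5 receptor of eosinophils, stood at 1.54, 1.87 and 0.375 CPM in WT and at 2.30, 6.61 and 6.81 CPM in KO. Pik3cg, a phosphoinositide 3-kinase catalytic subunit of leukocytes, stood at 36.8, 37.0 and 25.5 CPM in WT and at 56.0, 47.0 and 66.0 CPM in KO (0.77 ± 0.20, SE, log2). Pik3ap1, an adaptor of phosphoinositide 3-kinase signalling, differed by 0.97 ± 0.48 (SE, log2) with overlap. In whole tissue, fewer cells of a type and less RNA per cell cannot be told apart.

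Lymphocyte genes were scarce. Klrg1, a receptor of mature cytotoxic and regulatory cells, stood at 1.18, 0.936 and 0.625 CPM in WT and at 2.30, 2.78 and 2.72 CPM in KO (1.49 ± 0.31, SE, log2). Klra2, a killer lectin-like receptor gene and 1 of a family of near copies, stood at 2.27 to 3.08 CPM in WT and 4.72 to 7.14 CPM in KO. Which cells carried Klra2 was not tested. Pdcd1lg2, a ligand of the checkpoint receptor PD-1, and Foxp3, the regulatory T cell factor, also had groups that did not overlap (1.47 ± 0.44 and 0.87 ± 0.41, SE, log2). Members entirely above WT numbered 1 of 20 T cell receptor, 1 of 11 cytotoxic, 3 of 18 T cell regulation and 0 of 19 B cell genes. That compares with 4.55% of all genes, and 0 members of these lists lay entirely below WT. Cd8a differed by -0.04 (95% confidence interval -1.43 to 1.35, log2), so a difference of 2-fold in either direction lies inside the interval. T cell receptor genes split by library set, with a mean difference of 0.97 within the Y-read set and -0.33 within the Xist set. B cell genes split further, 1.23 against -1.43.

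Of 19 plasma cell genes 16 had a higher mean in KO (median 0.18, but 0.049 without KO replicate 1), with a mean difference of 0.53 within the Y-read set and -0.024 within the Xist set. Jchain (98.9 to 116 CPM in WT, 118 to 128 CPM in KO) and Igha (137 to 153 and 155 to 163 CPM) had groups that did not overlap, as 4.55% of all genes did on the higher side, with log2 differences of 0.18 ± 0.08 and 0.10 ± 0.06 (SE). Il17ra, the interleukin 17 receptor of epithelium, stood at 85.6 to 89.2 CPM in WT and at 66.3 to 73.0 CPM in KO (-0.33 ± 0.07, SE, log2). Ido1, the tryptophan-degrading enzyme, and the heat shock gene Hspa1b were lower without overlap, as were 5.04% of all genes (-1.06 ± 0.51 and -0.89 ± 0.24, SE, log2). Neutrophil genes and inflammatory cytokines had wide spread: Il1b stood at 25.2, 7.89 and 4.13 CPM in WT and at 7.53, 46.8 and 41.3 CPM in KO. The iron-sequestering lipocalin gene Lcn2 followed the same libraries, at 4.47 CPM in KO replicate 1 and 70.5 and 56.5 CPM in the other KO libraries.

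The muscle wall, its nerves and matrix had lower means in KO, most of all in KO replicate 3. In KO replicate 1 the enteric nervous system level lay above the WT range (0.50, beside a WT maximum of 0.42). The smooth muscle and matrix levels of that library lay inside it. In KO replicate 2 the enteric nervous system level lay below the WT range and the matrix level inside it. Its smooth muscle level lay just below (-0.17, beside a WT minimum of -0.15). All 18 smooth muscle genes (median -0.34), 18 of 20 enteric nervous system genes (median -0.46) and 24 of 25 fibroblast and matrix genes (median -0.23) were lower, with 0, 0 and 1 whose KO values lay entirely below WT, beside 5.04% of all genes. Without KO replicate 3 these medians were -0.13, -0.20 and -0.031, and without KO replicate 1 they were -0.59, -1.10 and -0.52. Without WT replicate 1 the smooth muscle and matrix medians were -0.16 and -0.063. Myh11, smooth muscle myosin, stood at 675, 533 and 602 CPM in WT and at 633, 495 and 291 CPM in KO. Prph, a neuronal intermediate filament, stood at 43.5, 37.7 and 45.9 CPM in WT and at 43.9, 15.6 and 10.6 CPM in KO. KO replicate 1 lay inside or at the WT range in both. Bmp3, a BMP family ligand gene, was the 1 matrix list member without overlap (-0.75 ± 0.33, SE, log2). Within the Y-read set all 18 smooth muscle genes were higher in KO replicate 1, and within the Xist set all 18 were lower. Nerve and matrix genes split likewise. Within the Y-read set 15 of 20 and 24 of 25 were higher, and within the Xist set 2 of 20 and 0 of 25.

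Several lists differed little, and for some the counts bound the difference closely. Folds may be compressed for genes above 0.3 counts per annotated exon base, a limit that bears most on genes abundant per exon length. The 22 respiratory chain genes had a median of 0.00, and each had a 95% confidence interval within 0.5 in either direction. The 12 genes of colonic identity also had a median of 0.00 and an interval within 0.5 for 10 of 12; Vil1 differed by -0.02 ± 0.06 and Epcam by 0.07 ± 0.08 (SE, log2). The mucin Muc2 (0.07 ± 0.11) and the goblet cell protein Clca1 (0.13 ± 0.12) were close to level, as was Cdkn1a, the p53-induced cell cycle inhibitor (-0.11 ± 0.10, SE, log2). Per exon length the most abundant of the named transcripts included Clca1, Pigr, the immunoglobulin transporter, and Krt20, and all 15 in that ranking had overlapping groups.

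The other genes with the smallest p served varied roles. On the lower side Sardh, a mitochondrial sarcosine dehydrogenase, stood at 32.5, 27.6 and 21.4 CPM in WT and at 12.1, 16.3 and 11.8 CPM in KO (-1.02 ± 0.22, SE, log2). Srd5a2, a steroid 5-alpha reductase (-0.75 ± 0.17), Ms4a10 (-1.01 ± 0.23), the polymerase I factor Taf1c (-0.46 ± 0.10), Klhl18 (-0.31 ± 0.06) and the p53 cofactor Ppp1r13b (-0.28 ± 0.06, SE, log2) also lay below WT in every KO library. On the higher side Tgif1, a repressor of TGF-beta targets, stood at 71.4, 78.8 and 60.5 CPM in WT and at 93.6, 112 and 106 CPM in KO, while Pgbd1 and Efcab12 were at most 5.42 CPM.

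Genes with large differences often rested on KO replicate 3. Jakmip3, Hydin, Best1, Tlx2 and Svopl had log2 differences of 1.67 to 2.56, with KO replicate 3 the highest library in each. Jakmip3 stood at 2.01 to 3.67 CPM in WT and at 3.83, 11.4 and 31.3 CPM in KO, and its difference was 1.55 without KO replicate 3. P2ry4, a nucleotide receptor of the surface epithelium, stood at 17.4, 13.5 and 19.0 CPM in WT and at 12.1, 1.85 and 0.817 CPM in KO, so KO replicate 1 lay just below WT. Alb, the serum albumin gene, stood at 5.91 to 11.9 CPM in WT and at 12.1, 49.2 and 34.7 CPM in KO. Krt78 differed by -2.55 with WT replicate 1 and by -1.28 without it. Depp1 and Foxn1 were lower without overlap (-1.19 ± 0.34 and -1.14 ± 0.37, SE, log2).

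The most variable genes were set by 1 or 2 libraries. Among those with a mean of at least 20 CPM, Krt4 and Krt13, keratins of stratified epithelium, stood at 149 and 139 CPM in WT replicate 1 and at most 8.85 and 14.0 CPM elsewhere. Ltf, lactoferrin, stood at 186 CPM there and at most 16.7 CPM elsewhere. Padi4, which citrullinates histones in neutrophils, stood at 44.0 and 69.9 CPM in KO replicates 2 and 3 and at most 9.34 CPM elsewhere.

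Across the 54 lists with tested members, the mean level in KO replicates 2 and 3 lay outside the WT range on the same side in 23. KO replicate 1 joined them on that side in 3, the clock, centriole and histidine lists. It lay inside the WT range in 17 and beyond it on the other side in 3. In the histidine list the level of KO replicate 1 leaned on 1 gene, Hal. Within the Y-read set Hal differed by 6.17, where the list's mean difference was 0.53 and its median 0.047.

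**Figure D5:**
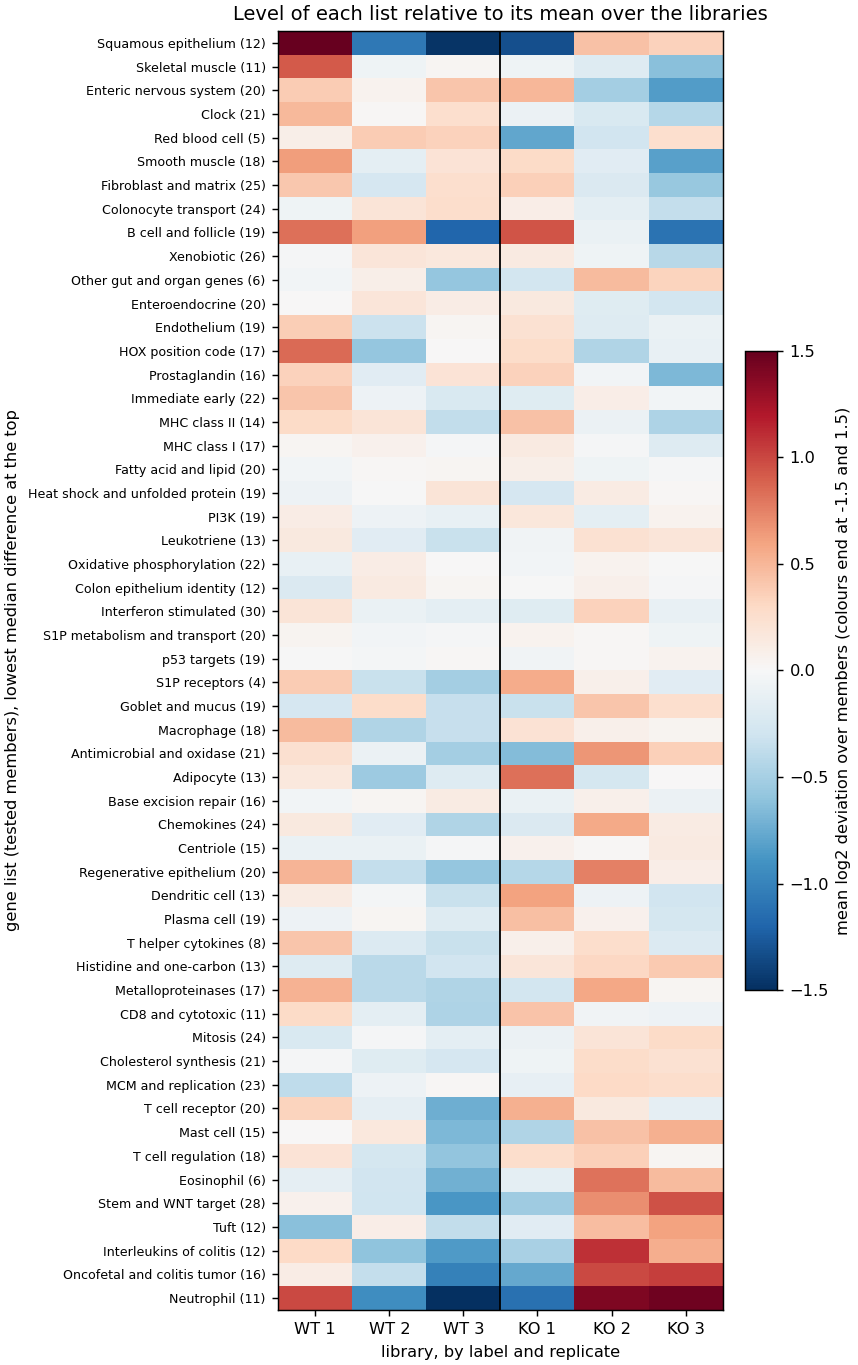
Mean log2 deviation of each gene list from its own mean over the 6 libraries (colours, clipped at -1.5 and 1.5), with libraries in columns and lists in rows ordered by their median log2 difference. KO replicates 2 and 3 share a pattern that KO replicate 1 mostly lacks, and the clock row is 1 in which all 3 KO libraries lie below the WT range.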

How the data were processed

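RNA was sequenced from total colon, 3 libraries labelled WT and 3 labelled S1PR4 KO. The authors deposited 1 table of read counts per Ensembl gene and library. STAR, TopHat2, RSEM, HTSeq and DESeq2 and the builds mm10 and GRCm38 are named in the submitters' processing notes, without roles for these counts. Symbols came from GENCODE mouse release 21 (GRCm38), with 30212 of 30263 IDs matched (99.8%). From the deposited counts, filterByExpr kept the genes to test, TMM set the scaling, and a robust quasi-likelihood fit in edgeR 4.0.16 (R 4.3.3) gave the main test, with Benjamini-Hochberg adjustment and a threshold of 0.05. DESeq2 1.42.0 and limma-voom 3.58.1 with sample weights, other scalings and filters, a replicate block and leaving out each library were alternatives. The script was tested on simulated data. No 2 replicates agreed within sampling noise. Each SE of the main fit was derived as the absolute log2 difference divided by the square root of its F statistic. The 95% confidence intervals were built from that SE and the fit's degrees of freedom, so both are approximate.

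Genes named are S1P receptors, Pik3ap1 and Lta4h, the 15 per direction with the smallest p, the 10 per direction with the largest non-overlapping difference at a mean of at least 5 CPM, DESeq2 calls, the 3 smallest p and 2 highest levels per list, the 15 highest levels per exon length and the 10 most variable at a mean of at least 20 CPM; not all of these are printed. Adipoq, Alox5ap, Arntl, Atp12a, Bhlhe40, Bhlhe41, Bub1, Ccnb1, Ces2a, Cry1, Cry2, Epcam, Hlf, Hsd11b2, Igha, Il1b, Kif20a, Mbd4, Nfil3, Nkd1, Npas2, Nr1d1, Pcna, Per1, Per3, Scnn1a, Scnn1b, Xist and the untested Krt5 and Pnlip fall outside these rules and were chosen after their values were seen. The 55 gene lists and the genes described were chosen with earlier results of these data known.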

Additional observations from a re-analysis of the deposited data

How the results depend on the processing

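No alternative fit with edgeR called a gene at an adjusted p under 0.05: other scalings, other filters, the Xist covariate, which was added after seeing the data, and leaving out any 1 library each gave 0. Limma-voom gave 0 as well, and DESeq2 gave 18, or 14 without a filter on low counts, a setting added after seeing the data. Genes at an unadjusted p under 0.05 numbered 870, between 307 (without WT replicate 3) and 3673 (without KO replicate 1) when 1 library was left out, 1321 of 30263 without a filter, 4552 with limma-voom and 567 with the Xist covariate. With the replicate number as a block, 0 genes were called and 1084 had an unadjusted p under 0.05. Same-numbered libraries did not deviate together (r of -0.04, 0.21 and -0.23), so the numbers were not taken as a pairing.

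Of 133 genes named, 120 kept their sign under every alternative run, and the other 13 were called under none. With total counts as the only scaling the log2 differences were Arntl 0.0011, Ephb2 0.024, Lrig1 0.0041, Vil1 0.0039, with a mean of at least 50 counts Ephb2 0.00086, with limma-voom Krt13 0.99, Krt20 0.030, Krt4 2.23, Ltf 2.02, Muc2 -0.021, and with the Xist covariate Arntl 0.16, Ephb2 0.0074, Lrig1 0.012, Npas2 0.037. With the replicate block they were Krt13 0.060, Krt4 0.94, Ltf 0.95. Leaving out 1 library moved Arntl from -0.21 to 0.10, Cd8a from -0.79 to 0.41, Clock from -0.14 to 0.015, Ephb2 from -0.065 to 0.040, Krt13 from -2.84 to 1.43, Krt20 from -0.12 to 0.033, Krt4 from -3.75 to 3.39, Lrig1 from -0.063 to 0.018, Ltf from -3.16 to 2.82, Muc2 from -0.019 to 0.14, Npas2 from -0.34 to 0.0056, S1pr1 from -0.34 to 0.25 and Vil1 from -0.052 to 0.016. Krt4, Krt13 and Ltf turned without WT replicate 1; for the others the cause was not tested. With 3 libraries a group, genes of low count are bounded least.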

Other observations

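Families grouped by symbol, chosen after the values were seen, gave further values. Ribosomal protein genes had a higher mean in KO in 61 of 72 (median log2 difference 0.09), but the family's mean level lay above the WT range in KO replicate 2 and inside it in KO replicates 1 and 3. Of these genes 2 lay entirely above WT and 1 entirely below, where 4.55% and 5.04% of all genes did. Of 21 centromere protein genes 19 were higher (median 0.30), as were 7 of 8 condensin subunits (median 0.25), with the mean level of centromere proteins above the WT range in KO replicates 2 and 3 and inside it in KO replicate 1. Kinesins were higher in 23 of 35. Among 40 cytochrome P450 genes 12 were higher (median -0.19), and among 12 carboxylesterases 4 (median -0.29). Of 328 lincRNAs 203 were higher (median 0.09), with 27 entirely above WT and 8 entirely below. Their mean level lay above the WT range in KO replicates 1 and 2 and inside it in KO replicate 3. Solute carriers were higher in 122 of 281.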
